A study of Mus musculus with 6 samples.

Results

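The genes described here are 7 Toll-like receptors (*Tlr1*, *Tlr2*, *Tlr3*, *Tlr4*, *Tlr7*, *Tlr9* and *Tlr13*), the co-receptor gene *Cd14*, the adaptor gene *Myd88* and *Irak3*, an inhibitor of the same pathway. They were chosen by gene symbol and are 10 of the 24394 symbols in the count table. A filter on low counts left 12424 genes for testing, and 9 of the 10 passed it, with *Tlr9* as the exception.

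RNA-seq was performed on CD8+ TRLs, regulatory-like T cells that FACS sorts as CD8+CD122+CD49dlo, from WT mice that the labels give as 9 weeks old and of C57BL/6NCrl background, whereas the study's methods name C57BL/6J. The groups were sham blood (sham operation), tMCAO blood and tMCAO brain, with 2 samples each, all collected 3 days after surgery. In tMCAO the middle cerebral artery is blocked for a limited time, here 60 minutes, and then reopened. Each sample held 500 to 1000 sorted cells. The study writes of read files per animal or sample, which leaves unstated whether a sample was 1 mouse or a pool, and p-values therefore reflect sample-to-sample spread that could be purely technical.

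Toll-like receptors are pattern recognition receptors of macrophages, dendritic cells, microglia and B cells, and some are expressed at a lower level by T cells. TLR1, TLR2 and TLR4 sit at the cell surface and recognize bacterial lipoproteins and lipopolysaccharide, with CD14 passing these ligands on. TLR3, TLR7, TLR9 and TLR13 sit in endosomes and recognize nucleic acids. All of them except TLR3 signal through the adaptor MyD88, which recruits IRAK kinases and leads to activation of NF-κB and AP-1, and IRAK3 (IRAK-M) dampens this step. In the ischemic brain, products of dying cells are known as ligands of TLR2 and TLR4.

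The labelled cell type was checked before any result. The libraries held 13793081 to 17149924 counts on genes. TMM-normalized CPM (read counts scaled to library size) of 17 T cell identity genes summed to between 9430 and 13900 in the 4 blood libraries but to 86.2 and 58.2 in the libraries labelled brain, and all 17 were called lower in brain than in either blood group. The 4 sort marker genes (*Cd8a*, *Cd8b1*, *Il2rb* and *Itga4*) summed to 3210 to 4510 CPM in blood and to 56.5 and 54.5 CPM in brain. The 15 microglia genes summed to 190 to 273 CPM in blood and to 28400 and 47200 CPM in brain, with all 15 called higher in brain. Of these, *Tmem119*, *P2ry13*, *Sall1*, *Siglech*, *Olfml3*, *Sparc*, *Fcrls* and *C1qc* had 0 counts in sham blood and passed the filter only through brain. For such genes this direction was close to given. The 15 monocyte and macrophage genes summed to 1200 to 3480 CPM in blood and to 30400 and 25400 CPM in brain. Of these, 14 were called higher and 1 lower in brain than in tMCAO blood, and 13 higher and 1 lower than in sham blood. The gene called lower was *Ly6c2*. *Ms4a7* and *Clec4n* of this list also passed the filter only through brain. Of all genes tested, 20.4% were called higher and 13.2% lower in brain than in tMCAO blood. Against sham blood these shares were 18.7% and 11.8%. The libraries labelled brain therefore go against their label, which applies to every comparison with brain, and whether the values describe CD8+ TRLs was not tested. In bulk samples, fewer cells of a type and less RNA per cell cannot be told apart.

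**Figure D1:**
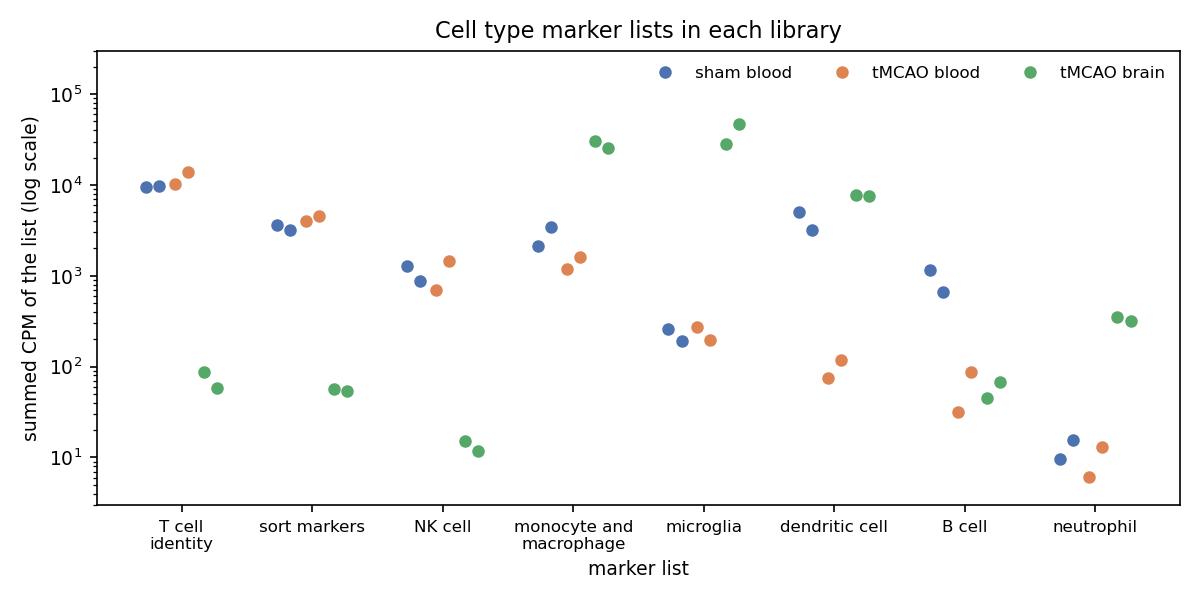
Summed TMM-normalized CPM (log axis) of 8 cell type marker lists in each library, with 1 point per library and colors for the 3 groups. T cell identity genes lie between 9430 and 13900 CPM in the 4 blood libraries and at 86.2 and 58.2 CPM in the 2 brain libraries, while microglia genes lie between 190 and 273 CPM in blood and at 28400 and 47200 CPM in brain.

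Promoter windows from RefSeq (GRCm38.p6), from 250 bases before to 50 bases after an annotated start, were searched for 7 members. No window of *Cd14*, *Tlr4* or *Tlr7* was searched, so the motif search leaves out *Cd14*, the member highest in brain. The windows below set members with steep differences between the libraries (*Tlr2* and *Tlr13*) beside members present in all of them (*Tlr1* and *Myd88*). Windows were searched on both strands for the PU.1 core GAGGAAG (found in 13.6% of all 32851 windows of this length), the AP-1 site TGACTCA (5.2%) and the NF-κB motif (8.46%), and capitals mark matches. Each sequence is given 5′ to 3′ on the strand of its gene, as chr3:83841559-83841858 (minus strand), chrX:106143025-106143324 (plus), chr5:64933509-64933808 (minus, the farther upstream of 2 windows) and chr9:119339969-119340268 (minus).
Tlr2: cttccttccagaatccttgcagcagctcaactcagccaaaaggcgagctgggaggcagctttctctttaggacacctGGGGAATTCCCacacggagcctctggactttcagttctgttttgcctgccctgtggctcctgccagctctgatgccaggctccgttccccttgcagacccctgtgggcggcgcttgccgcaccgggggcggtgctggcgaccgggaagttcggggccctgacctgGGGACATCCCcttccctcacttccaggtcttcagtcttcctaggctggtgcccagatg
Tlr13: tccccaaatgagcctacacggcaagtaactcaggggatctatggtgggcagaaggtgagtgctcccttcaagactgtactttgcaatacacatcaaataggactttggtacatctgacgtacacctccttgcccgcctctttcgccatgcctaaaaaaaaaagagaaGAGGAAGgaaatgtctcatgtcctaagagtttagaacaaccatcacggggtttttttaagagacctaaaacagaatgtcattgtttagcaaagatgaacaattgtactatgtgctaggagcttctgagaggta
Tlr1: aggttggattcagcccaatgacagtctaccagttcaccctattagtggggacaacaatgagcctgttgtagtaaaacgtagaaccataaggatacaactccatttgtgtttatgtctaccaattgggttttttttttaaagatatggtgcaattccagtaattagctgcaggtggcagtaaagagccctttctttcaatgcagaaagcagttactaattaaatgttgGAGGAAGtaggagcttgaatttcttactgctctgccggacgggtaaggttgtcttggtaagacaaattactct
Myd88: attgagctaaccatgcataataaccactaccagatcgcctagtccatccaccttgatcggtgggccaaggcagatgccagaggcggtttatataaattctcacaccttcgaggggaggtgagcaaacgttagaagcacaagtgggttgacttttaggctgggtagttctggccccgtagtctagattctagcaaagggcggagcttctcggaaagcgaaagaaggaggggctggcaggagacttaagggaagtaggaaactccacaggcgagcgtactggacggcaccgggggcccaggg
The *Tlr2* window held 3 NF-κB matches, 2 of which overlap by all but 1 base at each end and print as 1 run of capitals. The *Tlr13* window and the *Tlr1* window each held 1 PU.1 core. The *Myd88* window held none of these letters, nor did either window of *Irak3* or the second window of *Tlr1*. *Tlr3* had 1 NF-κB match, and *Tlr9* had 2 PU.1 cores and 1 AP-1 site. A match is a description of the letters and not a bound site.

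All 9 tested members were higher in brain than in either blood group. Of the surface receptors and their co-receptor, *Cd14* was the highest in brain, at 3480 ± 706 CPM (SD, n = 2) against 1.4 ± 1.16 CPM in tMCAO blood, and *Tlr4* the lowest, at 83.4 ± 6.67 CPM. A gene was called when edgeR's quasi-likelihood test gave a p under 0.05 after Benjamini-Hochberg adjustment and the fold change (as log2FC where given on the log2 scale) exceeded 2. Of all genes tested, 20.4% were called higher and 13.2% lower in brain than in tMCAO blood, and 18.7% higher and 11.8% lower than in sham blood. Both brain libraries lay above all 4 blood libraries for 9 of the 9 tested members, against 33.6% of all genes tested. *Tlr3*, with 0 and 7 counts in sham blood and 0 and 30 in tMCAO blood, passed the filter only through brain. A higher value in brain was thus close to given for *Tlr3*.

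**Figure D2:**
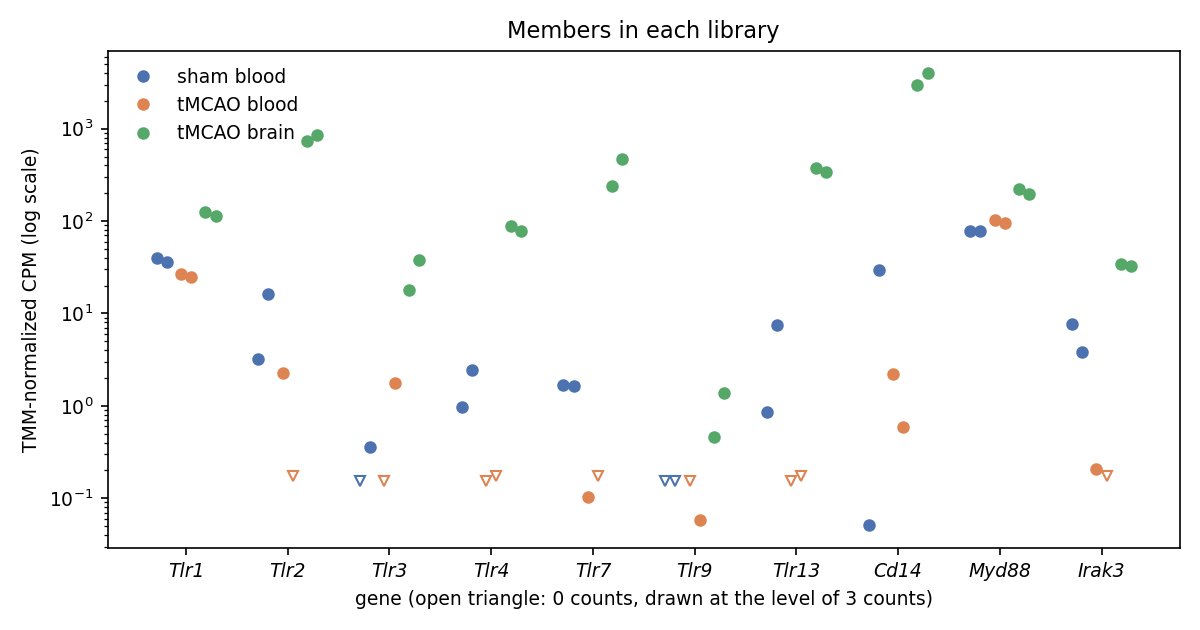
TMM-normalized CPM (log axis) of the 10 members in each of the 6 libraries, colored by group, with open triangles for libraries with 0 counts at the level that 3 counts would give. *Cd14* stands highest in brain at 2977 and 3976 CPM, *Myd88* and *Tlr1* are present in all libraries, and *Tlr9* does not exceed 1.37 CPM.

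*Tlr2* encodes the receptor that pairs with TLR1 or TLR6 to recognize bacterial lipoproteins (chromosome 3, 83836272 to 83841767 of GRCm38, minus strand). It measured 3.21 and 16.4 CPM in the sham blood libraries, and 2.28 and 0 CPM in tMCAO blood, against 736 and 854 CPM in brain. Both brain libraries were far above the others, and the blood groups did not overlap. The log2 fold change was 9.41 (SE 1.51, adjusted p = 0.00384, edgeR) in brain against tMCAO blood and 6.34 (SE 1.30, adjusted p = 0.0112, edgeR) against sham blood. Without sham blood 1 or either brain library, the adjusted p against sham blood rose to 0.0653, 0.0566 and 0.0572.

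*Tlr1* encodes the partner of TLR2 for triacylated lipoproteins (chromosome 5, 64924679 to 64933563, minus strand). It measured 39.9 and 35.7 CPM for sham blood, 26.7 and 25.0 CPM for tMCAO blood and, against these, 124 and 115 CPM in brain. It was thus the one Toll-like receptor among the 7 with over 20 CPM in every library. It was 4.63-fold higher in brain than in tMCAO blood (log2FC 2.21, SE 0.26, adjusted p = 0.00109, edgeR) and 3.16-fold higher than in sham blood (1.66, SE 0.25, adjusted p = 0.00372). The second call was lost without sham blood 2 (adjusted p = 0.0603). The neighbouring paralog *Tlr6*, the TLR2 partner for diacylated lipoproteins, shares stretches of near-identical sequence, so reads may be divided between these genes. The ratio of *Tlr1* to *Tlr6* counts was 8.59, 8.29, 9.05 and 8.9 in the blood libraries and 3.98 (95% exact interval 3.53 to 4.5) and 3.2 (2.86 to 3.6) in brain, and the lowest interval bound in blood was 6.59. These intervals reflect counting error alone, because PCR copies without molecular identifiers are not independent.

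*Tlr4* encodes the lipopolysaccharide receptor (chromosome 4, 66827584 to 66930284, plus strand). It had 19 and 47 counts in sham blood, 0 in both tMCAO blood libraries and 956 and 860 in brain. In CPM these are 0.969 and 2.41 in sham blood and 88.1 and 78.7 in brain. The gene was at least 1010-fold higher in brain than in tMCAO blood, taking 3 counts in the group as the floor (adjusted p = 0.000369, edgeR), and 49.1-fold higher than in sham blood (log2FC 5.62, SE 0.56, adjusted p = 0.00132).

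*Cd14* encodes the co-receptor that hands lipopolysaccharide to TLR4 (chromosome 18, 36725067 to 36726798, minus strand). Its counts were 1 and 576 in sham blood, and 43 and 10 in tMCAO blood, against 32310 and 43470 in brain. The replicates of sham blood were the farthest apart of all members with counts in both, by a ratio of 580, and the blood groups overlapped. In CPM, brain held 2977 and 3976 and no blood library more than 29.6. The log2 fold change was 11.25 (SE 2.30, adjusted p = 0.00999, edgeR) against tMCAO blood and 7.87 (SE 1.99, adjusted p = 0.0241) against sham blood, the latter not called without brain 1 (0.0873) or brain 2 (0.0886).

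The sham blood libraries also differed in *Lyz2*, a lysozyme gene of macrophages and neutrophils, with 358 CPM in sham blood 1 and 1854 CPM in sham blood 2. *Lyz2* was chosen for this after its values were seen. Other monocyte and macrophage genes varied in this. The lower and higher sham blood values were 215 and 221 CPM for *Ccr2* and 18.5 and 26.2 CPM for *Spi1*. They were 0.969 and 4.57 CPM for *C5ar1* and 0.204 and 2.36 CPM for *Clec4n*. Counts in sham blood 1 and 2 were 17 and 145 for *Tlr13* and 19 and 47 for *Tlr4*. *Tlr7*, with 33 and 32, and *Irak3*, with 152 and 75, were not higher in sham blood 2. *Tlr2* counts per *Lyz2* count were 0.00898 and 0.00883 in these libraries, so close to equal. *Cd14* counts per *Lyz2* count were 0.000143 and 0.0159. In tMCAO blood, on 199 and 304 *Lyz2* counts, the ratio was 0.221 and 0 for *Tlr2* and 0.216 and 0.0329 for *Cd14*. The near equality for *Tlr2* was thus limited to sham blood. In brain, the ratio to *Lyz2* was 0.0422 and 0.0687 for *Tlr2* and 0.171 and 0.32 for *Cd14*. The part of such cells in the results was not tested.

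Among the endosomal receptors, *Tlr7* and *Tlr13* were abundant in brain, *Tlr3* was lower and *Tlr9* was near the limit of detection. *Tlr7* encodes a receptor of single-stranded RNA (chromosome X, 167304929 to 167330558, minus strand). It had 33 and 32 counts in sham blood, and 2 and 0 in tMCAO blood, against 2595 and 5104 in brain. Brain thus held 239 and 467 CPM, apart by a ratio of 1.95 (95% exact interval 1.86 to 2.05). The ratio of brain to tMCAO blood was 6440 (95% counting interval 1780 to 53200, adjusted p = 0.000118, edgeR), and the log2 fold change against sham blood was 7.72 (SE 0.56, adjusted p = 0.000281).

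*Tlr13* encodes a mouse receptor of bacterial ribosomal RNA that humans lack (chromosome X, 106143204 to 106160493, plus strand). It had 17 and 145 counts in sham blood, 0 in both tMCAO blood libraries and 4072 and 3711 in brain. These are 0.867, 7.45, 375 and 339 CPM for the sham blood and brain libraries. The gene was at least 4340-fold higher in brain than in tMCAO blood (adjusted p = 0.00159, edgeR) and 85.9-fold higher than in sham blood (log2FC 6.42, SE 0.99, adjusted p = 0.00567).

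*Tlr3* encodes the receptor of double-stranded RNA, which signals through the adaptor TRIF in place of MyD88 (chromosome 8, 45395665 to 45411080, minus strand). It had 0 and 7 counts in sham blood, and 0 and 30 in tMCAO blood, against 197 and 417 in brain. In CPM the brain libraries held 18.2 and 38.1 and no blood library more than 1.75. The log2 fold change was 5.01 (SE 1.55, adjusted p = 0.0436, edgeR) against tMCAO blood and 7.23 (SE 1.79, adjusted p = 0.0223) against sham blood. The call against tMCAO blood was lost with DESeq2 on all samples (adjusted p = 0.179) or on the 2 groups (0.135), with library size alone as the scaling (0.0574), and without brain 1 (0.131) or brain 2 (0.225). The call against sham blood was lost without sham blood 1 (0.105), brain 1 (0.0847) or brain 2 (0.132). An antisense gene, *Gm45542*, shares 381 exonic bases with *Tlr3*, and the counting is not stated to use strand.

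*Tlr9* encodes the receptor of unmethylated CpG DNA (chromosome 9, 106222598 to 106226883, plus strand). It had 0 counts in both sham blood libraries, and 0 and 1 in tMCAO blood, against 5 and 15 in brain, and was not tested. The ratio of brain to tMCAO blood was 33.4 (95% counting interval 5.35 to 1390), and brain was at least 12-fold higher than sham blood.

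The adaptor gene was present in all libraries, and the inhibitor gene was higher in brain together with the receptors. *Myd88* encodes the adaptor shared by most Toll-like receptors and the IL-1 receptor family (chromosome 9, 119335934 to 119341411, minus strand). It measured 77.9 and 78.5 CPM for sham blood, 103 and 94.99 CPM for tMCAO blood and, against these, 222 and 195 CPM in brain, so that it was well expressed in all 6 libraries. It was 2.1-fold higher in brain than in tMCAO blood (log2FC 1.07, SE 0.23, adjusted p = 0.0129, edgeR) and 2.67-fold higher than in sham blood (1.41, SE 0.24, adjusted p = 0.00509). The first call lies at the 2-fold limit and was lost with library size alone as the scaling (log2FC 0.58, adjusted p = 0.0985), with FPKM (log2FC 0.66), without either sham blood library (0.0584 and 0.0576), without tMCAO blood 2 (log2FC 0.93, under the limit) and without brain 1 (0.116) or brain 2 (0.0772). The second was lost with the same settings (log2FC 0.85 with library size alone and 0.95 with FPKM, under the 2-fold limit) and without sham blood 1 (0.0823), sham blood 2 (0.0759) or brain 1 (0.0606). *Acaa1a* on the opposite strand shares 290 exonic bases with *Myd88*.

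*Irak3* encodes a catalytically inactive IRAK that restrains signaling downstream of MyD88 and is known from macrophages (chromosome 10, 120141648 to 120202130, minus strand). It had 152 and 75 counts in sham blood, and 4 and 0 in tMCAO blood, against 368 and 360 in brain. The corresponding levels were 7.75 and 3.85 CPM, 0.207 and 0 CPM, and 33.9 and 32.9 CPM, and the 3 groups did not overlap. The log2 fold change was 8.17 (SE 0.95, adjusted p = 0.00105, edgeR) in brain against tMCAO blood and 2.52 (SE 0.67, adjusted p = 0.0286) against sham blood. The latter was not called without sham blood 1 (0.0847), sham blood 2 (0.174), brain 1 (0.162) or brain 2 (0.15), nor with library size alone (0.0776) or FPKM with a pseudocount of 0.1 (0.0712). *Tmbim4* on the opposite strand shares 192 exonic bases with *Irak3*.

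**Figure D3:**
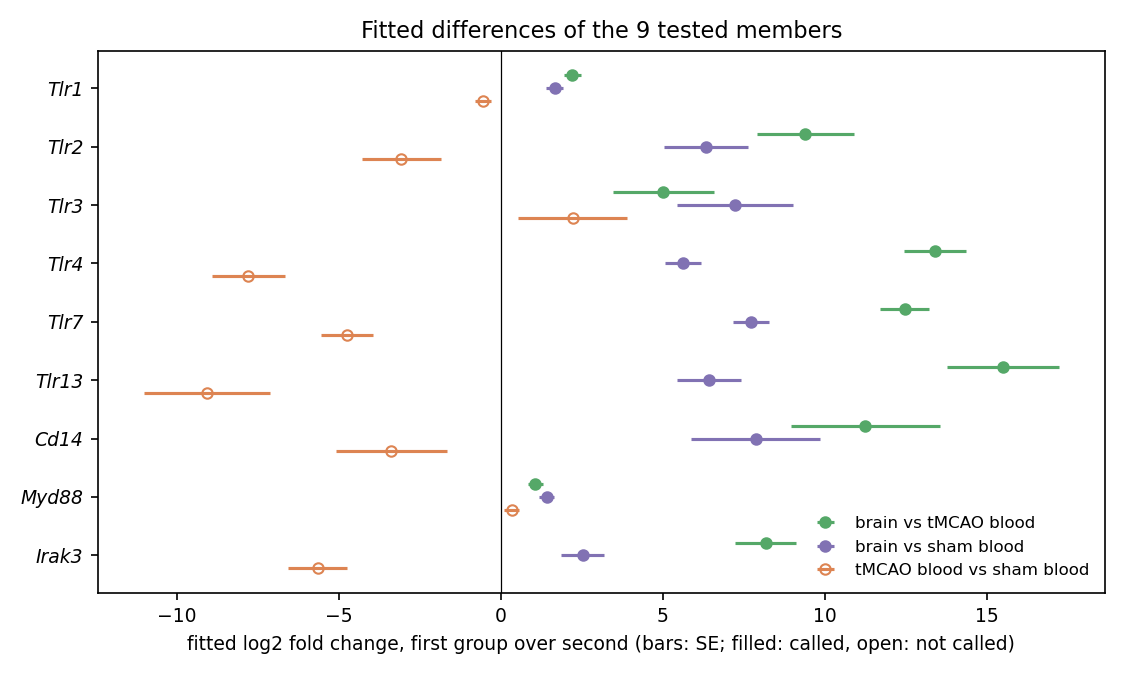
Fitted log2 fold change (points) with its SE (bars) of the 9 tested members for 3 comparisons, filled where called. All 9 are called higher in brain in both brain comparisons, and none is called between the blood groups; the points of *Tlr4*, *Tlr7* and *Tlr13* that involve tMCAO blood are fitted against 0 to 2 counts and depend on the prior count of the fit.

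The median log2 fold change of the 9 tested members was 9.41 in brain against tMCAO blood, where that of all genes tested was 0.05, and 6.34 against sham blood, where it was 0.13. Both comparisons share the brain libraries. The median against tMCAO blood stayed 9.41 when genes without counts were set at their lower bounds. *Tlr4*, *Tlr7* and *Tlr13* were called higher in brain under all 20 alternative settings in both brain comparisons. With library size alone, which moved the median of all genes from 0.05 to -0.442 against tMCAO blood, the same 9 genes still pointed upward.

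The second question was whether the genes differed between circulating cells after stroke and after sham operation. None of the 9 tested members was called with edgeR. Of all genes tested, 0% were called higher and 0.821% lower in tMCAO blood. With DESeq2 on all samples, 4 members (*Tlr4*, *Tlr7*, *Tlr13* and *Irak3*) were called lower. Of the 24394 genes in that fit, 358 were called lower and 13 higher.

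The 6 members *Tlr1*, *Tlr2*, *Tlr4*, *Tlr7*, *Tlr13* and *Irak3* had both tMCAO blood libraries below both sham blood libraries, as 18.6% of all genes tested did. *Tlr4* was at least 20.5-fold lower (adjusted p = 0.0506, edgeR) and *Tlr13* at least 50.3-fold lower (adjusted p = 0.188). The ratio was 0.033 for *Tlr7* (95% counting interval 0.00392 to 0.124, adjusted p = 0.0636, edgeR). *Irak3* had a log2 fold change of -5.65 (SE 0.90, adjusted p = 0.0506, edgeR). For *Tlr2* it was -3.06 (SE 1.21, adjusted p = 0.597). *Tlr1* had a small difference, of -0.55 (SE 0.25, adjusted p = 0.671), and so had *Myd88*, of 0.34 (SE 0.23, adjusted p = 0.761). The groups overlapped for *Tlr3* (2.22, SE 1.69, adjusted p = 0.784) and *Cd14* (-3.38, SE 1.72, adjusted p = 0.696).

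The *Cd14* value reversed to 4.59 (adjusted p = 0.502) without sham blood 2, the library with 576 of the 577 counts of its group. The *Tlr3* value reversed to -4.62 (adjusted p = 0.552) without tMCAO blood 2. Calls were gained without sham blood 1 for *Tlr4*, *Tlr13* and *Cd14* (adjusted p = 0.0225, 0.0115 and 0.0496) and without tMCAO blood 1 for *Tlr4*, *Tlr7* and *Irak3* (0.0444, 0.0496 and 0.0261). Markers of other blood cells moved between the same libraries. Of the 11 dendritic cell genes, the 3 MHC class II genes *Cd74*, *H2-Ab1* and *H2-Aa*, which B cells share, summed to 5014 and 3145 CPM in sham blood and to 34.4 and 106 CPM in tMCAO blood. The other 8 summed to 33.5 and 13.7 CPM against 40.9 and 11.1 CPM, so that their ranges overlapped, with *Flt3*, *Cd209a*, *Batf3* and *Ciita* at 0 in tMCAO blood alone and *Clec9a* at 0 in both groups. This division of the list was made after its values were seen. The 10 B cell genes summed to 1150 and 664 CPM and to 31.7 and 86.2 CPM. The monocyte and macrophage genes summed to 2120 and 3480 CPM and to 1200 and 1590 CPM, with *Csf1r*, *Adgre1*, *Fcgr1* and *Clec4n* at 0 in tMCAO blood. Their part in the results was not tested.

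Levels between genes were compared per length, in the FPKM the authors deposited. The 7 Toll-like receptors together measured 16.7 and 25.5 FPKM in sham blood, 11.7 and 8.33 FPKM in tMCAO blood and 362 and 420 FPKM in brain. *Tlr1* made up 85.9% and 50.4% of this sum in sham blood and 92.2% and 96% in tMCAO blood, but 9.56% and 7.35% in brain. In brain, *Tlr2* stood first, with 52.8% and 53.0%. *Tlr13* (18.7% and 14.4%) and *Tlr7* (12.9% and 20.4%) changed places between the brain libraries, so their order is not given by these samples. They were followed by *Tlr1*, then *Tlr4* (5.01% and 3.44%), *Tlr3* (0.923% and 1.37%) and *Tlr9* (0.0665% and 0.0651%). *Cd14* alone had 1491 and 1846 FPKM in brain. In sham blood 2 the FPKM of *Tlr7* was 2.23 for each plain CPM, against 0.235 to 0.316 in the other libraries with at least 30 counts. Its 16.8% share there thus rests on a value that its 32 counts do not match. The sum of 25.5 FPKM and the other shares of that library, such as 50.4% for *Tlr1*, include the same value.

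**Figure D4:**
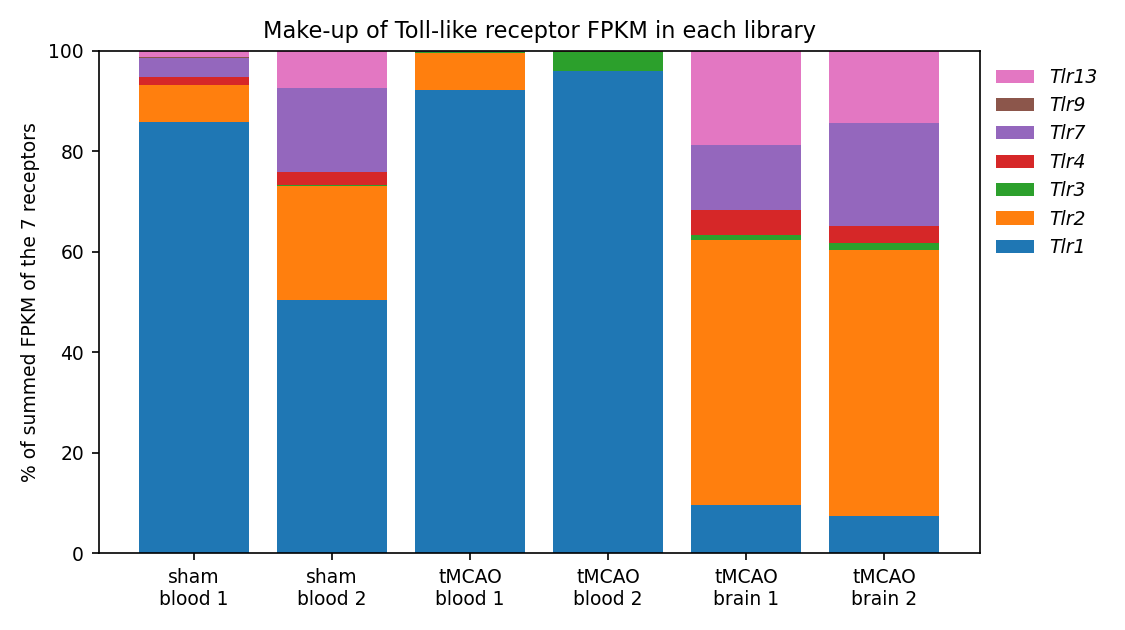
Share (%) of the summed FPKM of 7 Toll-like receptors taken by each receptor, as 1 stacked bar per library. *Tlr1* takes 50.4% to 96% in the 4 blood libraries and 9.56% and 7.35% in brain, where *Tlr2* takes 52.8% and 53.0%.

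The other genes of the pathway were described by lists of 94 tested genes in all. Some of them, such as *Il12b* and *Peli3* with 0 counts in blood, passed the filter on low counts only through brain. So did *Peli2*, with 8 counts in sham blood and 0 in tMCAO blood, and *Il1rn*, with 17 and 1. A higher value in brain was close to given for such genes. In brain against tMCAO blood, 59 of the 94 were called higher and 7 lower, where 20.4% and 13.2% of all genes tested were. Against sham blood 49 were higher and 6 lower, beside 18.7% and 11.8% of all genes. Between the blood groups, 0 were higher and 10 lower in tMCAO blood, beside 0% and 0.821% of all genes. With T cell scaling, 93 were called higher and 0 lower in brain in both comparisons. Of all 12424 genes tested, that scaling called 11857 higher against tMCAO blood and 11820 against sham blood. The 93 are thus not particular to these lists, and the falls named here hold for the TMM scaling. Counts and values of the lists in brain are against tMCAO blood unless sham blood is named.

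Other Toll-like receptors were called higher in brain than in tMCAO blood for 3 of 3 tested genes and than in sham blood for 2, with *Tlr8* not called there (adjusted p = 0.0577, edgeR). *Tlr5* and *Tlr8* passed the filter on low counts only through brain, so this direction was close to given for them. Of the 5 genes listed, *Tlr11* had 0 counts in every group. *Tlr12* had 6 counts in sham blood, 4 in tMCAO blood and 0 in brain, and neither was tested. *Tlr6* measured 33.5 CPM in brain and 2.88 CPM in tMCAO blood (log2FC 3.54, SE 0.40, adjusted p = 0.000972, edgeR). *Tlr8*, another endosomal RNA receptor, was at least 173-fold higher and *Tlr5*, the flagellin receptor, at least 16.7-fold higher.

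Accessory and trafficking proteins were called higher in brain for 15 of 17 (13 against sham blood) and lower for 0, with a median log2 fold change of 5.68. *Lgmn*, *Ctsb* and *Ctss* encode endosomal proteases that cleave nucleic acid-sensing receptors. *Lgmn* measured 7470 CPM in brain and 1.77 CPM in tMCAO blood (log2FC 12.03, SE 0.58, adjusted p = 0.000106, edgeR). *Ctsb* measured 29200 and 571 CPM, and *Ctss* 13300 and 264 CPM. *Ly86* encodes MD-1, the partner of the B cell and dendritic cell receptor RP105. It rose to 1280 CPM from 0.908 CPM. In tMCAO blood, 5 of the 17 fell against sham blood, *Ly86* by 5.61 (adjusted p = 0.00996) and the lipid scavenger receptor gene *Cd36* by 7.01 (adjusted p = 0.0129) on the log2 scale.

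Other adaptors were called higher in brain for 4 of 6, against either blood group. *Tirap*, which bridges TLR2 and TLR4 to MyD88, had a log2 fold change of 2.92 (SE 0.60, adjusted p = 0.00998, edgeR). *Ticam1*, which encodes TRIF, had 3.21 (SE 0.87, adjusted p = 0.0277). *Ticam2*, which encodes TRAM, was at least 357-fold higher than in tMCAO blood and there at least 12.4-fold lower than in sham blood (adjusted p = 0.0373). *Pik3ap1* encodes BCAP, an adaptor linking receptors to PI3K, and had a log2 fold change of 4.85 in brain.

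Kinases and ubiquitin ligases, most of which every cell uses, had a median log2 fold change of 0.41, with 6 of 22 called higher and 2 lower in brain (7 and 2 against sham blood), shares near those of all genes tested. *Irak2* rose by 3.04 (SE 0.47, adjusted p = 0.00326, edgeR). *Btk*, a kinase of B and myeloid cells, was at least 528-fold higher in brain than in tMCAO blood, where it was at least 107-fold lower than in sham blood (adjusted p = 0.0362). *Peli2* was at least 178-fold higher in brain, while *Peli1*, a ubiquitin ligase known to restrain T cell activation in mice, fell by 1.34 (SE 0.30, adjusted p = 0.0145).

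Negative regulators were called in both directions, with 5 of 13 higher and 3 lower in brain against either blood group. *Sigirr*, an orphan receptor that restrains IL-1 receptor and Toll-like receptor signaling, fell by 4.03 (SE 0.39, adjusted p = 0.000541, edgeR). *Lilrb4a*, an inhibitory receptor of myeloid cells, rose by 5.53 (SE 0.38, adjusted p = 0.000176), and *Zc3h12a*, the RNase Regnase-1, by 4.15 (SE 0.85, adjusted p = 0.00999). *Dok3* was at least 849-fold higher in brain than in tMCAO blood and in tMCAO blood at least 60.9-fold lower than in sham blood (adjusted p = 0.00996). *Sigirr* and *Irak3*, both inhibitors of the pathway, thus lay on opposite sides.

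Of 16 transcription factors, 10 were called higher and 1 lower in brain than in tMCAO blood, and 7 higher and 0 lower than in sham blood. *Irf8* rose by 4.92 (SE 0.29, adjusted p = 0.000112, edgeR) and was also lower in tMCAO than in sham blood (-1.85, SE 0.26, adjusted p = 0.0308). *Atf3* rose by 10.45, *Fos* by 5.37 and *Jun* by 5.75. Of 17 target genes, 16 were called higher and 1 lower in brain than in tMCAO blood, with a median of 9.12, or 6.48 with genes at or near 0 counts set at their bounds or ratios. Against sham blood 11 were higher and 1 lower, with a median of 4.87. *Il1b* rose by 12.90 (SE 1.40, adjusted p = 0.000831, edgeR). For *Il1rn*, which encodes the IL-1 receptor antagonist, the ratio was 7870 (95% counting interval 1410 to 311000). *Cd83*, an activation marker of dendritic cells, rose by 10.56 and was 5.68 lower on the log2 scale in tMCAO than in sham blood. The target gene that fell was *Ccl5*, a chemokine that CD8+ T cells store, by 8.02 (SE 0.93, adjusted p = 0.00105). It measured 8.29 and 47.4 CPM in brain.

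**Figure D5:**
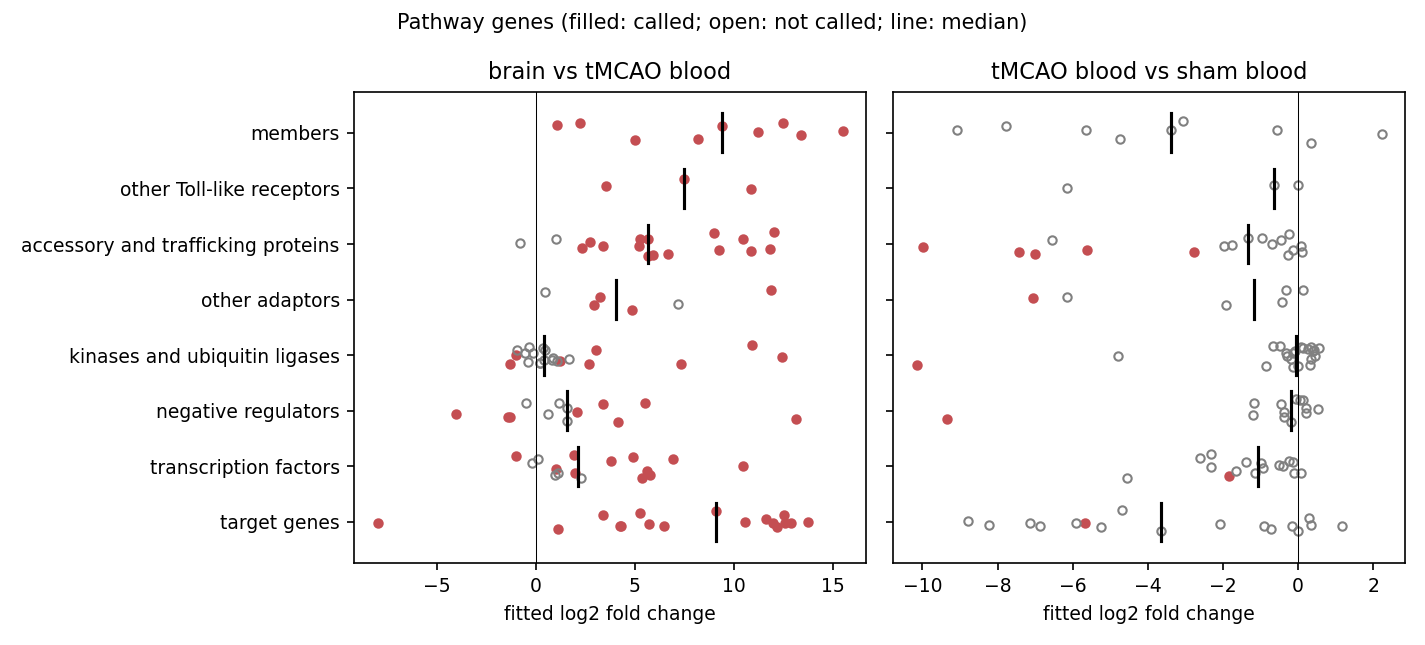
Fitted log2 fold change of each tested gene in the members and 7 pathway lists for brain against tMCAO blood (left) and tMCAO blood against sham blood (right), with filled points called and a line at the median. The median of the kinases and ubiquitin ligases lies at 0.41 on the left and those of the members and of the target genes at 9.41 and 9.12; called points on the right all lie below 0.

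The genes with the most similar profile were found by the root mean square difference of centered log2 CPM over the 6 libraries. *Tlr2* was nearest to *Aif1* (0.759), *Rnase4* (0.877) and *Msr1* (0.927). *Tlr4* was nearest to *Trem1* (0.328), *Tlr7* to *Hpgds* (0.348), *Tlr13* to *AI607873* (0.429), *Cd14* to *Ccr1* (0.88), *Tlr3* to *Trim47* (0.665) and *Irak3* to *Ebi3* (0.432). *Tlr1* and *Myd88* had 786 and 1861 genes within 0.5, and their nearest genes were *Hdlbp* (0.123) and *Fbxo6* (0.0442). *Tlr2*, *Tlr3* and *Cd14* had no gene within 0.5.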

How the data were processed

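RNA-seq of 6 samples was analysed from 2 deposited tables. The authors ran FastQC, trimmed adapters and poor bases, mapped 75-bp paired-end reads to GRCm38 (mm10) with TopHat and deposited raw counts per gene symbol. They also deposited FPKM, with Cufflinks named for abundance; for TopHat and FastQC no version was found, nor an annotation release (not given in the sources used here). Excluded were the 5 lines naming no gene (60.1% to 65.7% of reads) and 27 lines with dates in place of symbols.

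Counts were tested with edgeR 4.0.16 in R 4.3.3 (filterByExpr, min.count 10 and min.total.count 15, TMM scaling, glmQLFit and glmQLFTest on all 6 samples, 3 residual degrees of freedom), with Benjamini-Hochberg adjustment over 12424 genes. Standard errors come from the log2 fold change and F. An exact permutation test of 2 against 2 samples cannot go below p = 0.333 and was not used. Log2 ratios between replicates had an SD of 0.565 in sham blood, 1.04 in tMCAO blood and 0.641 in brain, so the shared spread may be too small for tMCAO blood. Bounds use 3 counts over a group. Alternatives used DESeq2 1.42.0, limma 3.58.1, other scalings and filters, FPKM with pseudocounts of 1 and 0.1 on the log2 scale, a replicate block and each library left out. Positions are from GENCODE M21. Tables used Python 3.11.15, pandas 2.3.3 and scipy 1.17.1. Simulated data with known changes served to test the scripts.

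Members, lists and tests were chosen with earlier results of these data known. Named genes are all members, from each pathway list up to 4 tested genes with the smallest p in brain against tMCAO blood and up to 2 between the blood groups, and the 3 nearest profiles of each member, of which the report prints the first or all. No other sample columns were present.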

Additional observations from a re-analysis of the deposited data

How the results depend on the processing

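With 20 alternative settings, members called higher in brain than tMCAO blood numbered 7 to 10 (9 as reported, 7 to 9 with single libraries left out). Against sham blood the count fell from 9 to 5 at an adjusted p under 0.01 and ranged from 4 to 9 with libraries left out (4 without brain 1). Between the blood groups, 0 members became 4 lower with DESeq2 on all samples, 2 with DESeq2 on the 2 groups, 2 with DESeq2 size factors, 4 with T cell scaling, 3 with no filter and 2 with the stricter filter, and 0 to 3 with libraries left out. Pathway list genes called in brain against tMCAO blood went from 66 (59 higher, 7 lower) to 93 (all higher) with T cell scaling and to 43 at an adjusted p under 0.01 (41 to 67 with libraries left out). Against sham blood they went from 55 to 93 with T cell scaling and 31 at an adjusted p under 0.01 (29 to 63). Between the blood groups they went from 10 to 17 with DESeq2 on all samples, 0 with edgeR on the 2 groups, 1 with limma-voom, 17 with T cell scaling, 3 at an adjusted p under 0.01, 5 with FPKM and a pseudocount of 1, 0 with the same and no filter, and 0 to 26 with libraries left out (26 without tMCAO blood 1, 0 without either brain library).

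With the replicate block, members called numbered 9, 9 and 0 and pathway list genes 59, 51 and 6 in the 3 comparisons. Replicate numbers did not pair the samples (correlations of deviations -0.023, -0.0266 and 0.0261).

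The log2 fold change between the blood groups ranged from -4.65 to 4.59 for *Cd14* and from -4.62 to 6.76 for *Tlr3* with libraries left out, both reversing where 1 library held nearly all counts of its group. Where a library left out leaves 1 sample in a group, that sample is assumed to vary like the other groups.

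T cell scaling, which sets T cell identity genes equal, moved the median of all genes to 7.299 in brain against tMCAO blood and 7.259 against sham blood. All genes called higher and lower in brain against tMCAO blood were 2530 and 1640 with TMM, 1938 and 2863 with library size alone (median -0.442) and 11857 and 9 with T cell scaling. Against sham blood they were 2326 and 1471, 1606 and 2709 (median -0.436), and 11820 and 13.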
